A study of Mus musculus with 6 samples.

Results

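The genes described here build, trim, sulfate or break down the sugar chains of cell-surface and secreted molecules, or carry such chains as syndecans and glypicans. They were chosen by gene name, from the families that start with B3gal, B4gal, B3gnt, B4gat, Galnt, St3gal, St6gal, St8sia, Mgat, Fut, Man1, Man2, Chst, Chsy, Hs2st, Hs3st, Hs6st, Ndst, Ext, Xylt, Alg, Pig, Gpc, Sdc, Has, Pomg or Pomt, together with Npl, Cmas, Gne and Nans, and without pseudogenes. The table of normalised counts lists 4233 genes, and 33 of them are members. The GENCODE M21 annotation of the mouse build GRCm38 holds 186 protein-coding symbols that follow the same rule, so most of the symbols were not analysed here. None of the N-glycan branching (Mgat), fucosyltransferase (Fut), heparan sulfate sulfation (Ndst, Hs2st, Hs3st, Hs6st) or hyaluronan synthase (Has) symbols is among the 33, and neither are Gne and Nans.

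RNA was sequenced from lymphatic endothelial cells of the meninges, the membranes around the brain, which were sorted as single cells without DAPI or CD45 staining and with CD31 and podoplanin on their surface. The design set 3 libraries of hemizygous 5xFAD mice against 3 of non-transgenic littermates (WT), all from males of the C57BL/6J strain aged 6 months. 5xFAD is a model of brain amyloid deposition whose transgenes are driven by the Thy1 promoter, which is active in neurons, and not by an endothelial one. Meningeal cells of 10 mice were pooled per library, so the spread between the animals of a pool is not seen.

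Sugar chains are built in the endoplasmic reticulum and the Golgi by transferases that each add 1 kind of sugar, and sialic acid often ends the chain. N-glycans are attached to asparagine as a ready-made block and then trimmed and extended, mucin-type O-glycans start with N-acetylgalactosamine on serine or threonine, and glycosaminoglycans such as heparan sulfate start with xylose on a core protein. On endothelial cells these chains form the glycocalyx, the surface coat that binds chemokines and growth factors and takes part in the passage of leukocytes.

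The recovered reads over the listed genes numbered 13255050, 7960827 and 8573669 in the 5xFAD libraries and 11366768, 10263689 and 11934686 in the WT libraries. Members held from 0.331% to 0.457% of these reads in 5xFAD and from 0.332% to 0.558% in WT. All 8 lymphatic endothelial markers looked for were listed, with summed normalised counts from 233185 to 355381 in 5xFAD and from 245266 to 284946 in WT. Fibroblast markers were present too (6 of 11 listed, none at 0 in any library), at 35075 to 38456 in 5xFAD and 31779 to 66052 in WT, as were 6 of 10 blood endothelial markers, at 20205 to 26724 and 14857 to 26472. Of the leukocyte markers 1 of 9 was listed (Mrc1), of the mural ones 3 of 8 and of the erythroid and platelet ones 0 of 5. No listed marker passed by limma (32 tested, 1 at an unadjusted p under 0.05), edgeR or DESeq2, and the part of other cell types in the results was not tested. In bulk samples, fewer cells of a type and less RNA per cell cannot be told apart.

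Of the 32 members tested, 1 was higher and 3 were lower in 5xFAD than in WT (limma, Benjamini-Hochberg adjusted p under 0.05 over 4152 genes with a mean normalised count of at least 10). The SEs, intervals and p-values of limma given here rest on the spread of genes of like level, not on the gene's own replicates. The higher one was Xylt1, which starts glycosaminoglycan chains, and the lower ones were B4galt4, a galactosyltransferase, Npl, which breaks down sialic acid, and St6galnac2, a sialyltransferase of O-glycans. These 4 are 12.5% of the tested members, against 6.36% of all tested genes called in either direction, 1.88% called higher and 4.48% called lower. The members were chosen with earlier results of these data known, so this share and those below do not test for an excess. On the recovered reads, edgeR called 1 member higher and 2 lower, against 1.93% and 4.12% of all genes, and DESeq2 called 2 higher and 3 lower, against 3.93% and 6.36%. Log2 fold changes of (normalised count + 1) were positive for 15 members and negative for 17, with a median of -0.09 beside -0.02 for all tested genes. With the 2 members that had no 5xFAD read set at their bounds, the median was also -0.09. The median absolute log2 fold change was 1.05 for the members and 0.79 for all tested genes. Gpc5, the member left out of the test, averaged 5.32 normalised counts in 5xFAD and 4.71 in WT.

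**Figure D1:**
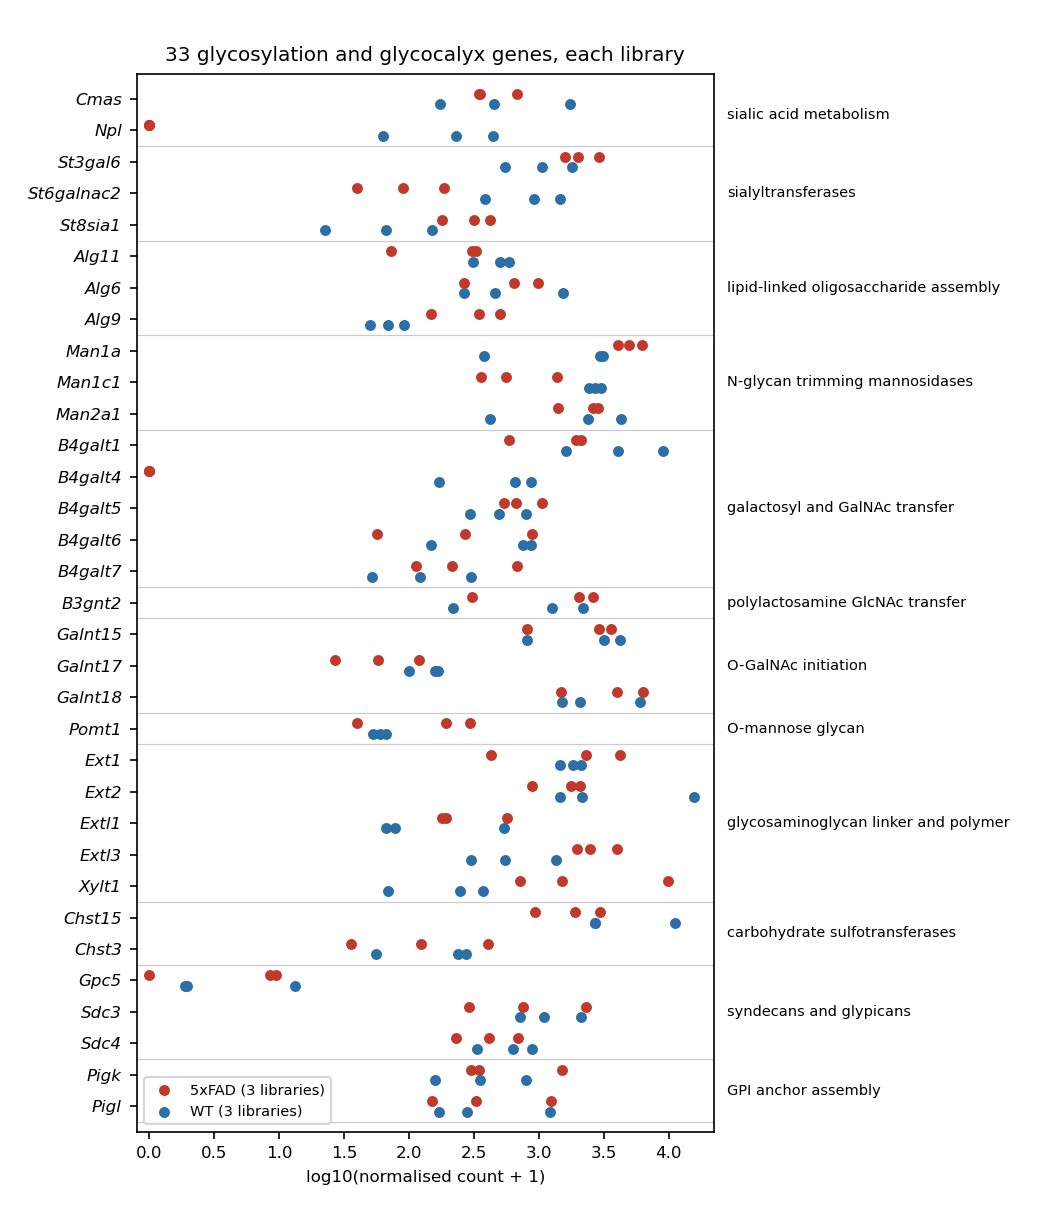
Normalised counts of the 33 members in each library, as log10(normalised count + 1), with the 3 5xFAD libraries above the 3 WT libraries in each row and members grouped by role. B4galt4 and Npl are at 0 in all 3 5xFAD libraries, and for most other members the 2 groups of points overlap.

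Replicates differed widely. In 21 of the 32 tested members the highest library of 5xFAD or of WT was more than 5 times the lowest of the same group. Groups did not overlap for 9 members (28.1%), 5 with 5xFAD above WT and 4 below, against 18.1% of all tested genes (7.97% above, 10.1% below). The 9 were the 4 called members and Man1c1, Man1a, Extl3, Alg9 and St8sia1. The other 23 overlapped, 15 of them with less than a 2-fold difference, and their log2 fold changes lay between -1.54 and 1.15 (limma adjusted p from 0.333 to 0.993).

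**Figure D2:**
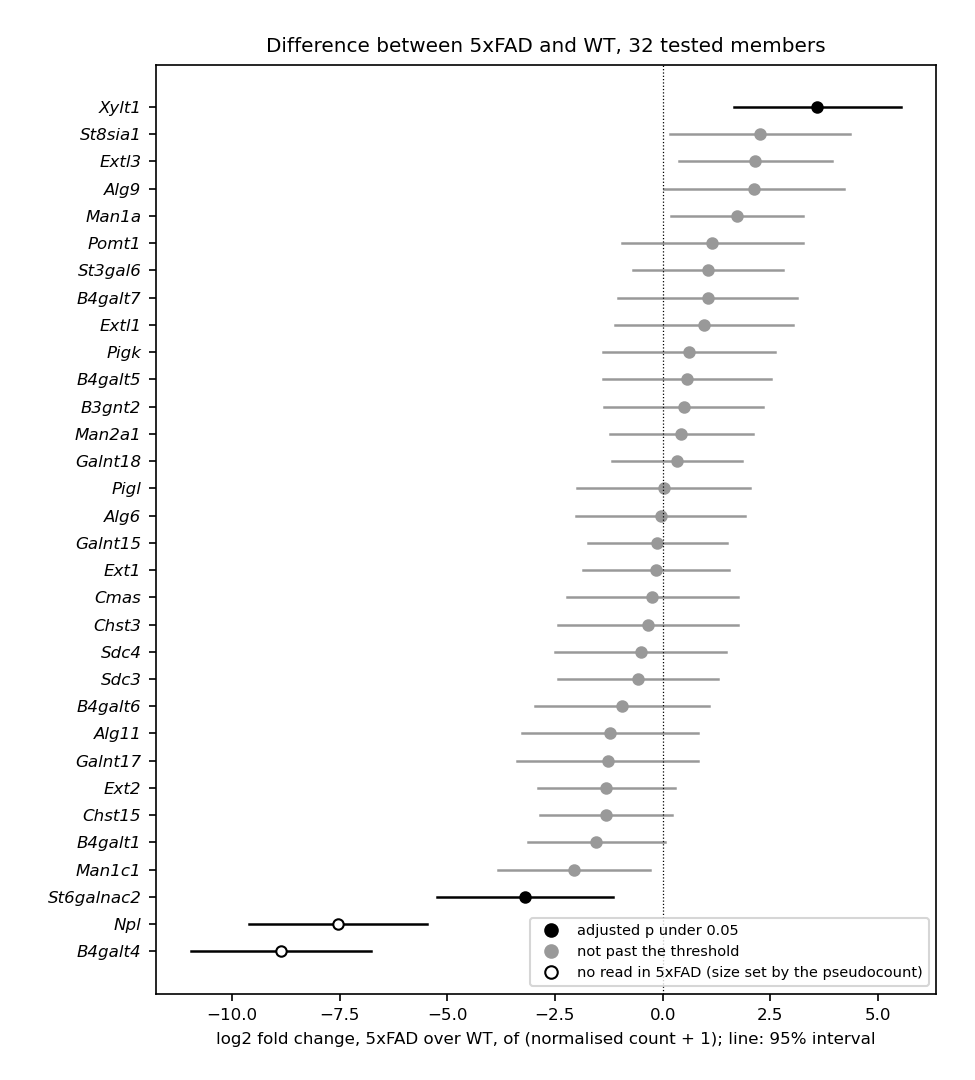
Log2 fold change of 5xFAD over WT for the 32 tested members, ordered by size, with 95% intervals from limma. Filled black points passed the threshold, as did the open ones, B4galt4 and Npl, which had no 5xFAD read and whose plotted size depends on the pseudocount. Of the 28 grey members, 5 have an interval that leaves out 0 but missed the threshold after adjustment. An unadjusted limma p under 0.05 was found for 9 of the 32 tested members and for 16.3% of all tested genes.

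B4galt4 and Npl are the 2 members without a read in any 5xFAD library. B4galt4 has the largest bound of fall among the members. Its upstream sequence is shown because it was the only called member with a RefSeq window outside its GENCODE gene. The Npl window overlaps its gene, as do those of some other members, and St6galnac2 and Xylt1 had no window. Shown are the 250 bases before the RefSeq start on build GRCm38.p6, with capitals for CCAAT boxes (CCAAT or ATTGG) and GC boxes (GGGCGG or CCGCCC).
B4galt4, chr16:38742009-38742258, plus strand: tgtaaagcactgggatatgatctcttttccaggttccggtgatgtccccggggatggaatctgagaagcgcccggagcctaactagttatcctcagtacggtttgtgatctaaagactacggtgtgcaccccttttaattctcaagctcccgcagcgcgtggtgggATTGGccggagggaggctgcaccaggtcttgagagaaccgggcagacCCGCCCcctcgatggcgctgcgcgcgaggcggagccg
The B4galt4 window holds 1 CCAAT box, 1 GC box and 19 CpG dinucleotides, and 19 was also the median CpG count of the members' windows. Among all 32851 RefSeq windows of this length, 33.8% held a CCAAT box and 32.7% a GC box on either strand, and the median was 6 CpG. Of the 25 members matched to the RefSeq table, 8 had a CCAAT box and 15 a GC box in at least 1 window. TATAAA (or TTTATA) was in the windows of 2 members and in 12.4% of all windows, and the ETS-type run CCGGAAG (or CTTCCGG) in those of 0 members and in 6.91%. A match or its absence describes these letters only.

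Sialic acid is the charged sugar that ends many chains. Npl, the lyase that splits free sialic acid into N-acetylmannosamine and pyruvate, had 0 reads in each 5xFAD library, against 278, 67 and 501 reads in the WT libraries (normalised counts 228, 62.3 and 443). The fall was at least 227-fold, with 5xFAD set at a floor of 3 reads over the group (limma adjusted p = 1.69e-10). The bound was 129 without 5xFAD 1, whose absence only leaves fewer libraries behind the floor, and 135 without WT 3. The gene spans chromosome 1, 153503015 to 153550045. Cmas, which activates sialic acid as CMP-sialic acid for the transferases, was at 343, 682 and 352 in 5xFAD and at 449, 1745 and 172 in WT, with the 5xFAD values inside the WT range (log2 fold change -0.24, SE 1.01).

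St6galnac2 adds sialic acid to the N-acetylgalactosamine at the base of O-glycans. Its normalised counts were 89.6, 184 and 38.5 in 5xFAD, against 381, 912 and 1461 in WT, so all WT libraries were above all 5xFAD libraries. St6galnac2 fell by 3.20 on the log2 scale (95% interval -5.24 to -1.15; limma adjusted p = 0.0361). The call was lost without 5xFAD 1, 5xFAD 3, WT 2 or WT 3 (limma adjusted p = 0.0842, 0.211, 0.138 and 0.206), and edgeR on recovered reads gave an adjusted p of 0.0540. Annotated exons of the noncoding gene 1810032O08Rik on the other strand overlap St6galnac2 on chromosome 11 (116675303 to 116694868). Whether the counting used strand is not given in the sources used here, so whether their reads were kept apart is not known. Another identifier named St6galnac2 (116677483 to 116681290) shares 383 exon bases with it on the same strand. Which of the 2 identifiers the listed gene stands for is not known. St8sia1, the synthase of the ganglioside GD3, was at 318, 177 and 418 in 5xFAD and at 64.9, 21.4 and 149 in WT. The groups did not overlap, and it did not pass the test (log2 fold change 2.25, SE 1.06; limma adjusted p = 0.242). St3gal6, which adds sialic acid to lactosamine ends, averaged 2168 ± 661 in 5xFAD and 1138 ± 640 in WT (SD, n = 3), a difference of 1.05 on the log2 scale with overlapping libraries (limma adjusted p = 0.633).

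Galactosyltransferases of the B4galt family extend N-glycans, O-glycans, glycolipids and the linker of glycosaminoglycans. B4galt4, which acts on chains ending in N-acetylglucosamine, including the sulfated form found in keratan sulfate, had 0 reads in each 5xFAD library, against 207, 710 and 991 reads in WT (normalised counts 170, 660 and 877; chromosome 16, 38742264 to 38769049). It was at least 528-fold lower in 5xFAD by the same floor (limma adjusted p = 4.72e-14), and at least 299-fold lower without 5xFAD 1, where fewer libraries stand behind the floor. Loss of all reads was not particular to these 2 genes: 50 of the 4152 tested genes had no read in all 3 5xFAD libraries and 10 in all 3 WT libraries. Genes without reads numbered 87, 86 and 147 of the 4233 in the 5xFAD libraries and 26, 25 and 42 in the WT libraries, and the part of this difference in the B4galt4 and Npl results was not tested.

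No other galactosyltransferase passed. B4galt1, the main lactosamine synthase, was at 1928, 2096 and 593 in 5xFAD and at 4084, 1607 and 9007 in WT (log2 fold change -1.54, SE 0.81; limma adjusted p = 0.333). WT 2 lay below 2 of the 3 5xFAD libraries, so the groups overlapped. B4galt5, a lactosylceramide synthase, averaged 754 ± 270 in 5xFAD and 528 ± 253 in WT (SD, n = 3; log2 fold change 0.57). B4galt6, the other lactosylceramide synthase, and B4galt7, which adds the first galactose of the glycosaminoglycan linker, had overlapping groups as well. Per kilobase of merged exons, which puts genes on a common length, mean WT levels in this family were 1157 for B4galt1, 177 for B4galt4, 102 for B4galt6 and 54.0 for B4galt7, with B4galt5 between B4galt4 and B4galt6. B4galt1 was also the highest of the 5 in 5xFAD, at 364 per kilobase.

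Glycosaminoglycan synthesis begins with Xylt1, a xylosyltransferase that puts the first sugar on the core protein. Xylt1 was at 1518, 9827 and 720 normalised counts in 5xFAD, against 367, 67.9 and 246 in WT. Every 5xFAD library was above every WT library, the lowest of them 1.96 times the highest of WT, and the 5xFAD libraries differed among themselves 13.6-fold. It rose by 3.58 on the log2 scale (95% interval 1.65 to 5.52; limma adjusted p = 0.00687; chromosome 7, 117380979 to 117673580). This interval comes from genes of like level. The SDs of log2(recovered reads + 1) of Xylt1 itself were 1.95 in 5xFAD and 1.35 in WT, and the interval does not hold that spread. Without 5xFAD 2 the log2 fold change was 2.51 and without WT 2 it was 2.87, and neither passed (limma adjusted p = 0.226 and 0.118), while without 5xFAD 3 it was 4.39 and passed. The ratio of group means was 17.7 with all libraries and 4.93 without 5xFAD 2.

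Extl3, which adds the sugar that commits a chain to heparan sulfate, was at 3989, 1970 and 2492 in 5xFAD and at 551, 298 and 1349 in WT. The groups did not overlap, but the difference did not pass (log2 fold change 2.15, SE 0.91; limma adjusted p = 0.158). Ext2, a subunit of the heparan sulfate polymerase, was at 1780, 884 and 2058 in 5xFAD and at 2153, 1465 and 15620 in WT, where WT 3 alone stood far above the rest (log2 fold change -1.31, and -0.26 without WT 3; limma adjusted p = 0.447). Its partner Ext1 and the related Extl1 had overlapping groups. Chst15, which adds a further sulfate to chondroitin sulfate, was at 927, 1911 and 2982 in 5xFAD and at 2714, 11116 and 2718 in WT (log2 fold change -1.32, SE 0.78, and -0.64 without WT 2; limma adjusted p = 0.419). Chst3, a chondroitin sulfotransferase, averaged 187 ± 193 in 5xFAD and 188 ± 117 in WT (SD, n = 3; log2 fold change -0.35).

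Core proteins of the surface coat did not pass the test. Sdc3 was at 291, 751 and 2311 in 5xFAD and at 721, 2111 and 1102 in WT (log2 fold change -0.58, 95% interval -2.42 to 1.27). Sdc4, the syndecan found at focal adhesions, was at 411, 231 and 685 in 5xFAD and at 888, 335 and 637 in WT (log2 fold change -0.51, 95% interval -2.49 to 1.47). A 4-fold fall lies inside both intervals.

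**Figure D3:**
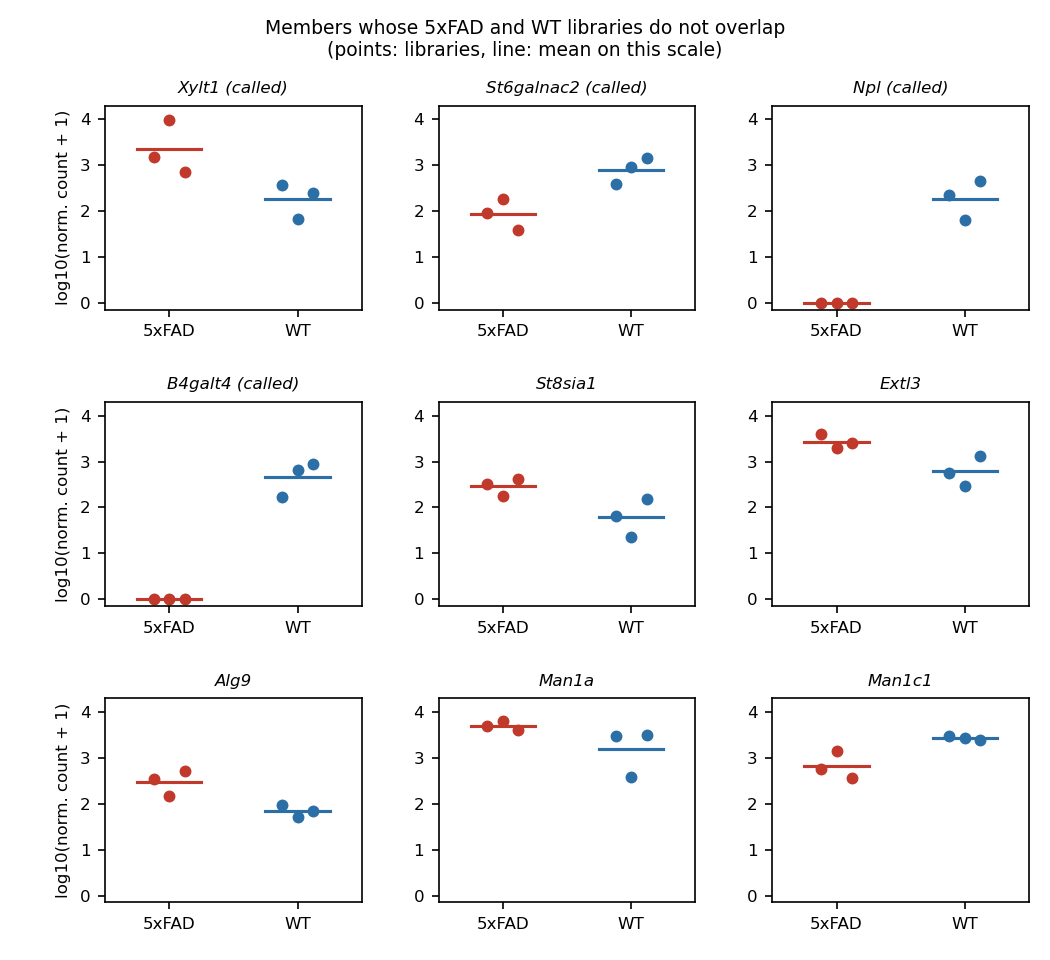
The 9 members whose 5xFAD and WT libraries do not overlap, as log10(normalised count + 1), with 1 point a library and the mean as a line. Xylt1, St6galnac2, Npl and B4galt4 passed the test; St8sia1, Extl3, Alg9, Man1a and Man1c1 did not.

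N-glycans are assembled on a lipid in the endoplasmic reticulum by the Alg enzymes and then trimmed by mannosidases. Alg9, a mannosyltransferase, was at 348, 147 and 502 in 5xFAD and at 91.2, 49.3 and 68.1 in WT. Its groups did not overlap, and it missed the threshold with limma (log2 fold change 2.11, SE 1.06; adjusted p = 0.293) but passed with DESeq2 on the recovered reads (log2 fold change 2.25; adjusted p = 0.0273). Of its 3889 exon bases, 500 are shared with 1110032A03Rik on the other strand, and whether the reads of the 2 genes were kept apart is not known. Alg11, another mannosyltransferase, averaged 235 ± 141 in 5xFAD and 469 ± 142 in WT (SD, n = 3; log2 fold change -1.22, and -0.52 without 5xFAD 1), and Alg6, which adds the first glucose, differed by -0.05, both with overlapping libraries.

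Among the Golgi mannosidases, 2 enzymes that remove the same kind of mannose differed in opposite directions, and neither passed the test. Man1a was at 4919, 6254 and 4101 in 5xFAD and at 2956, 380 and 3148 in WT (log2 fold change 1.72, SE 0.78; limma adjusted p = 0.210), and its log2 fold change was 0.72 without WT 2. Man1c1 was at 559, 1371 and 360 in 5xFAD and at 2993, 2733 and 2429 in WT (log2 fold change -2.06, SE 0.90; limma adjusted p = 0.185). In both the groups did not overlap, and the WT values of Man1c1 were close together while WT 2 was low for Man1a. Man2a1, which acts after them, averaged 2293 ± 774 in 5xFAD and 2366 ± 1926 in WT (SD, n = 3). Its log2 fold change was 0.43, and the sign turned with edgeR and DESeq2 (-0.09 and -0.05).

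None of the members that start O-glycans, extend lactosamine repeats or build anchors passed by limma, edgeR or DESeq2. Galnt18 and Galnt15, of the family that starts mucin-type O-glycans, differed by 0.33 and -0.12 on the log2 scale, and Galnt17 by -1.28, with overlapping libraries in each. Galnt18 had the highest mean level per kilobase of the 33 members in 5xFAD and in WT, at 1534 and 1245, though its libraries overlapped those of other members in both groups, as those of Man1a (528) in 5xFAD and of B4galt1 (1157) in WT. B3gnt2, which extends lactosamine repeats, differed by 0.49, and Pomt1, which starts O-mannose chains on dystroglycan, by 1.15. Pigk, the catalytic subunit of the enzyme that attaches glycosylphosphatidylinositol anchors, differed by 0.60 and Pigl, an early enzyme of anchor synthesis, by 0.03. Levels of B3gnt2, St3gal6 and Chst15 are uncertain, since 2449 exon bases of B3gnt2 are shared with Gm28048 on the same strand, 1603 of St3gal6 with Dcbld2 and 1206 of Chst15 with Gm10584 on the other strand.

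Other genes of these pathways were taken from 9 lists (226 symbols outside the 33 members, of which 54 were listed and tested). By limma, 1 of the 54 was higher and 0 were lower, against 1.88% and 4.48% of all tested genes. An unadjusted limma p under 0.05 was found for 7 of them, against 16.3% of all. With edgeR 1 was higher and 0 were lower (1.93% and 4.12% of all), and with DESeq2 4 and 1 (3.93% and 6.36%). Log2 fold changes were positive for 30 and negative for 24, with a median of 0.17 beside -0.02 for all tested genes. The higher one was Idua, the lysosomal iduronidase that degrades heparan and dermatan sulfate, at 3443, 2113 and 2136 in 5xFAD against 127, 153 and 534 in WT. Idua rose by 3.51 on the log2 scale (SE 0.97; limma adjusted p = 0.00735), by 4.15 without WT 3, and lost its call without 5xFAD 1 or WT 1 (limma adjusted p = 0.0614 and 0.0644). Its exons overlap those of Slc26a1 and Dgkq on the other strand. No gene passed by limma among those for donor synthesis (2 tested), nucleotide sugar transport (2), N-glycosylation in the endoplasmic reticulum (8), other O-glycan and glycolipid transferases (8), other glycosaminoglycan enzymes (4), core proteins (14), anchor remodelling (1) or lectins (8). Slc35a1, the Golgi transporter of CMP-sialic acid, is named after its values were seen: it was at 414, 440 and 1178 in 5xFAD and at 97.0, 49.3 and 71.7 in WT, without overlap, and did not pass (log2 fold change 3.08, SE 1.05; limma adjusted p = 0.0531). DESeq2 on the recovered reads called Slc35a1 as well as Idua higher (adjusted p = 0.000384 and 0.000603).

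**Figure D4:**
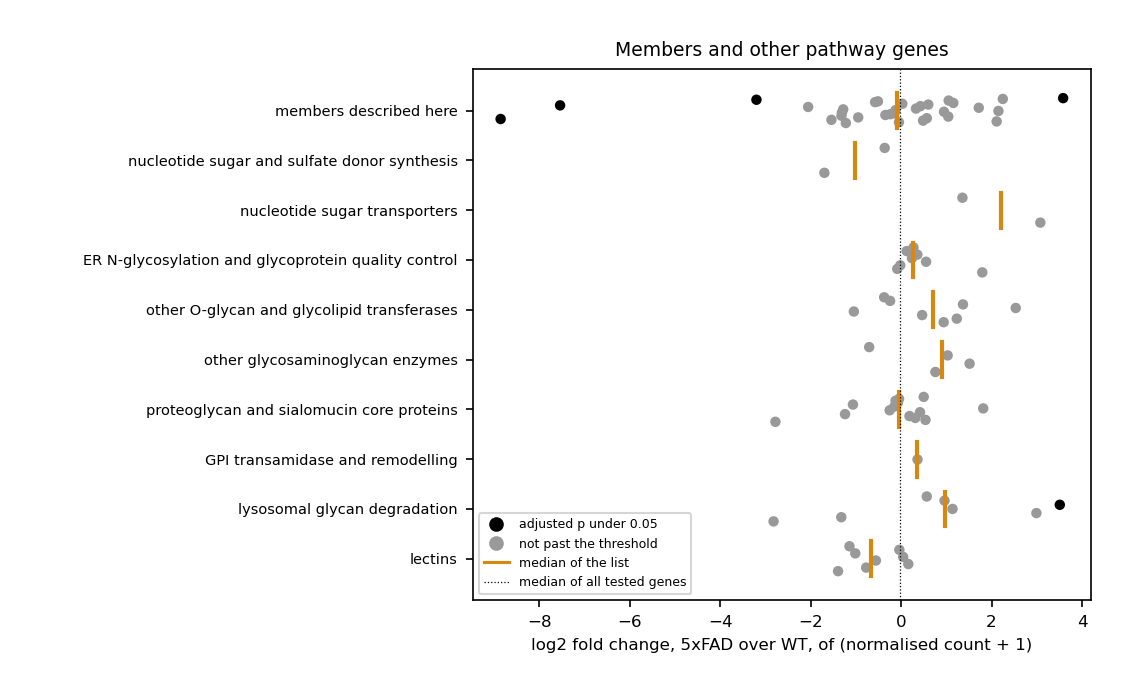
Log2 fold change of 5xFAD over WT for the 32 tested members and for the tested genes of 9 lists of other pathway genes, with 1 point a gene and the median of each list as a vertical bar. Outside the members, Idua in lysosomal glycan degradation is the 1 gene past the threshold. The median over the 54 listed genes is 0.17, beside -0.02 for all tested genes.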

How the data were processed

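The deposited table holds a signal: counts per gene that the authors had divided by a size factor for each library. Per the submitters' processing notes, the tools were FastQC, Trimmomatic, Salmon and DESeq2 with build mm10; no version or setting is given. Per the labels' protocols, a PicoPure extraction was followed by linear RNA amplification. Amplification can add spread between libraries, and its part here was not tested. Every value was a whole multiple of its column's smallest value above 0 (100%, within 1e-06), and dividing by it gave whole numbers, called recovered reads here. Whether they are direct counts or rounded estimates from Salmon is not given, and this holds for values of 0 too. Their totals cover listed genes only and are not library depth. The SD of log2(recovered reads + 1) stayed under 2 for every listed gene inside 5xFAD and inside WT (highest 1.99961 in each), but was 2 or more over all 6 libraries for 328 genes, 4 of them members. Such a limit is not given in the sources used here, and genes at 0 in all libraries of a group meet it. A gene at 0 in only some libraries of a group meets it only with few reads in the others. If the table was cut at this limit, SEs, adjusted p-values and called shares describe only genes within this spread. What they would be over all genes was not tested.

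Genes with a mean of at least 10 were tested on log2(value + 1) with limma 3.58.1 in R 4.3.3, without covariates, two-sided, with Benjamini-Hochberg adjustment over 4152 genes; the prior variance followed mean level. Its degrees of freedom were infinite: each SE comes from genes of like level and not from the gene's own replicates, and fold changes understate those of low genes. Floors of 3 reads cover counting error only. Alternatives were edgeR 4.0.16 and DESeq2 1.42.0 on recovered reads, pseudocounts of 0.5 and 4, no filter or a mean of at least 50, no trend, 2 other scalings, the replicate block and each library left out. Of the recovered reads, edgeR called 80 genes higher and 171 lower, and DESeq2 163 and 264. Positions are from GENCODE M21 (32 of 33 members had 1 position; 2 identifiers carry the name St6galnac2), and 14 members share exon bases with another gene.

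The members and lists were chosen with earlier results of these data known. Fold changes are given for called members, for the 2 highest members and the largest uncalled change in each role, and for Npl, Cmas and the syndecans; others are named without one. Of the pathway lists called genes are named. Some results of the marker lists are not reported here, though counts include them.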

Additional observations from a re-analysis of the deposited data

How the results depend on the processing

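B4galt4 and Npl passed the threshold in all 16 alternatives. Both had 0 reads in all 3 5xFAD libraries, so leaving out a 5xFAD library could not change their log2 fold changes (-8.86 and -7.54). The alternatives share these 0 reads and are not separate evidence. The 1 higher member became 2 with DESeq2 on recovered reads (Alg9 beside Xylt1) and 0 to 1 with single libraries left out; the 3 lower members were 2 with a mean of at least 50 and with edgeR, both times without St6galnac2 (adjusted p = 0.0556 and 0.0540), and 2 to 3 with single libraries left out. The cause was not tested. With the replicate block 1 member was higher and 3 were lower, and Slc35a1 passed (adjusted p = 0.0474); the numbers did not pair the libraries (deviations from the group means correlated at 0.00247, -0.0157 and -0.0126; 0 of 6 libraries correlated best with their own number). Slc35a1 also passed without the trend and with quantile normalization (adjusted p = 0.0262 and 0.0329).

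Among the 28 members given with a fold change, signs turned for 10, none of which had passed; Ext1, given without one, was at -0.15 with limma and at 0.31 and 0.35 with edgeR and DESeq2. Man2a1 was at -0.09 with edgeR and -0.05 with DESeq2, and Pigl at -0.09 when libraries were scaled to the same total, which moved the median of all genes to -0.14. With single libraries left out, log2 fold changes were -1.02 to 0.64 for Cmas, -0.61 to 0.67 for Alg6, -0.55 to 1.12 for Man2a1, -0.49 to 1.45 for B3gnt2, -0.86 to 0.54 for Galnt15, -0.14 to 0.92 for Galnt18, -1.22 to 0.54 for Chst3, -1.34 to 0.15 for Sdc3, -0.14 to 1.19 for Pigk and -0.80 to 0.86 for Pigl. With 1 library left out in turn, the log2 fold change of the uncalled B4galt1 ran from -2.18 to -0.94 and that of St8sia1 from 1.53 to 2.91, and Pomt1 was at 2.02 without 5xFAD 3. The 3 libraries a group limit what could be called: SEs of the tested members ran from 0.77 to 1.07 on the log2 scale.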
